A study of Homo sapiens with 12 samples.

Results

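The response to the peptide GLUP that HGC-27 cells of both genotypes had in common was measured by RNA-seq, by setting all 6 GLUP-treated libraries against all 6 untreated libraries with genotype as a covariate. All 12 libraries of the series entered, in 4 groups of 3, namely WT untreated, WT with GLUP, TEAD4KO untreated and TEAD4KO with GLUP. Of the 20345 gene rows in the deposited table, the 11225 whose mean over the 12 libraries reached 1 FPKM were tested. FPKM counts fragments relative to transcript length and to all mapped fragments in a library, so levels can be compared between genes per unit of length.

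HGC-27 is a human gastric cancer cell line, WT stands for the line with no stated edit, and TEAD4KO for cells of the line labelled as knocked out for TEAD4. How many TEAD4KO clones were used is not given in the sources used here. GLUP is a synthetic cyclic peptide with repeated TEAD4-binding elements that was designed to draw TEAD4 molecules together, and its controls are untreated by label, while the study's methods name the stock buffer as vehicle. The study gives differing lengths of exposure for its RNA-seq, so none is stated here. By their titles, untreated replicates are numbered 1, 2 and 3 and those with GLUP 14, 15 and 16, the order in which values are listed below. Anything that follows this numbering in culture or library preparation cannot be told apart from GLUP. The labels do not say whether replicates were separate cultures, so p-values measure the spread between these libraries, which may be technical.

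TEAD4 is 1 of the TEAD family of DNA-binding factors, which have little activity of their own and depend on the co-activators YAP and TAZ, the effectors of the Hippo pathway. VGLL4 competes with YAP and TAZ for the TEADs and represses their targets, and CCN1, CCN2 and AXL are among the targets most often used as a readout. Signalling through receptor tyrosine kinases and the kinase ERK is another route that controls growth genes. It induces PEA3-type ETS factors and immediate early genes, and it is held back by feedback inhibitors, such as Sprouty proteins, that ERK itself induces. The design text of the series names a test of the peptide's specificity as the purpose of profiling both genotypes.

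TEAD4 transcript did not fall in the cells labelled as its knockout. TEAD4 (ENSG00000197905) stood between 22.9 and 25.8 FPKM in the 6 WT libraries and between 26.0 and 30.1 FPKM in the 6 libraries labelled TEAD4KO. A knockout at the protein level cannot be read from this table, and the groups are called TEAD4KO-labelled below. Of 14 epithelial and gastric markers, 3 (KRT8, CDH1 and CLDN7) reached the filter, TFF1, TFF2 and GKN1 were listed at 0 in every library, and the mesenchymal filament gene VIM ranged from 1238 to 1704 FPKM. Of markers of other cell types, HBB, CD3E and CDH5 were listed at 0 in every library, and the near-identical alpha globin genes HBA1 and HBA2, whose reads could be split, lay between 28.6 and 54.9 FPKM and were not called for GLUP (log2 fold changes -0.12 and -0.048). On the first principal component, which held 39.7% of the variance, TEAD4KO-labelled untreated replicate 1 and GLUP replicate 16 stood apart from the other 4 libraries with that label. This untreated replicate 1, at -0.962, lay nearer to WT, and GLUP replicate 16, at -5.26, lay within the range of the WT libraries (-16.2 to -3.71). Without both libraries that stood apart, 41 genes were called for GLUP in place of 34, and 29 of the 34 were among them. The FPKM total per library ranged from 375361 to 423757, and the depth in reads is unknown.

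Few transcripts were called for GLUP, and those that were called changed by little. At an adjusted p under 0.05 (limma, Benjamini-Hochberg over all rows tested), 34 of 11225 genes were called, which is 0.303%, with 24 higher (0.214%) and 10 lower (0.0891%) in GLUP libraries. The largest rise among them was that of TDO2 and the largest fall that of OLR1, and no called gene passed a fold change over 2. Changes are given on the log2(FPKM + 1) scale, on which those of low genes are understated, and 10 of the 34 changed by under 1.25-fold. At an unadjusted p under 0.05, 846 genes passed (7.54%), with 422 higher (3.76%) and 424 lower (3.78%). The 34 genes were all protein coding and lay on 17 chromosomes, at most 4 on any 1 of them. Their expression was in the middle of the range, with a median over the 12 libraries of 15.3 FPKM for those called higher and 13.9 FPKM for those called lower, against 10.5 FPKM over all rows tested. The count of 34 fell to between 15 and 22 when any 1 of the 6 WT libraries, TEAD4KO-labelled untreated replicate 2 or TEAD4KO-labelled GLUP replicate 14 or 15 was left out. When replicate numbers entered the fit as a block, 15 genes were called, all of them among the 34. The consensus correlation between same-numbered libraries in that fit was 0.181. Of the 34 calls, 14 survived the omission of any 1 of the 12 libraries. These 14 were ETV5, ETV1, DKK1, TGFB2, TDO2, RDH10, TMTC1, FAM171B and FILIP1L, which were higher, and DLX3, OLR1, KRT4, HACD1 and PROK1, which were lower, and with TRIML2 they were also the 15 called under the block.

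**Figure D1:**
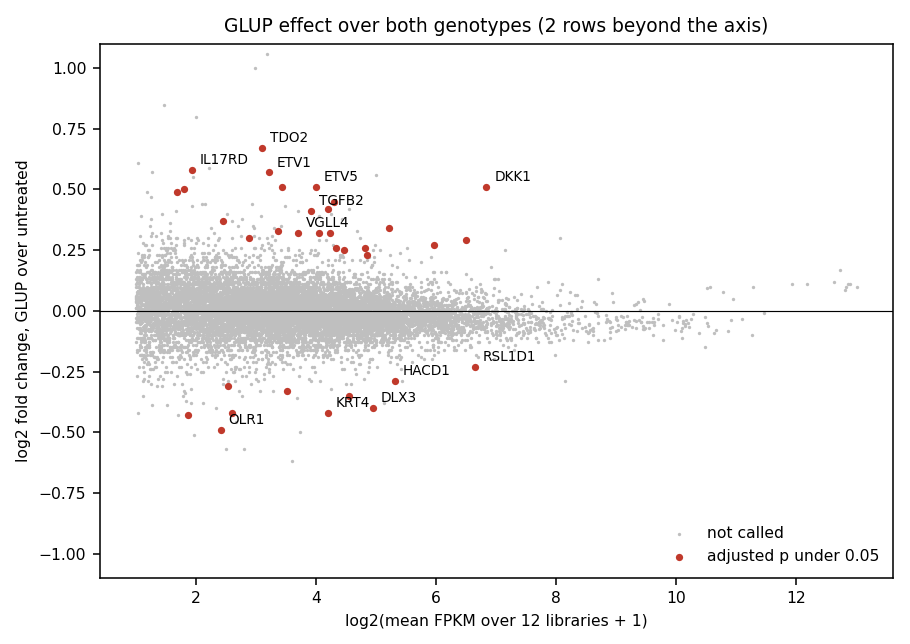
Each point is 1 of the 11225 rows tested, with the log2 of its mean FPKM plus 1 over 12 libraries on the horizontal axis and its log2 fold change with GLUP over both genotypes on the vertical axis. The 34 called genes, in red, lie at moderate expression and within 0.67 of 0 on the log2 scale.

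The order of the libraries was described next. For each of the 34, all 3 GLUP libraries lay on 1 side of all 3 untreated libraries in WT and also in TEAD4KO-labelled cells. Over all rows tested 186 genes (1.66%) separated in this way in both genotypes and in the same direction, 112 higher (0.998%) and 74 lower (0.659%). For 22 of the 34, the 6 GLUP libraries did not overlap the 6 untreated ones at all, against 64 of all rows (0.570%). The 34 were called on these same values, so their separation is a description. Centred within genotype, the median of the 24 genes called higher ranged from -0.26 to -0.11 in untreated libraries and from 0.14 to 0.25 in GLUP libraries on the log2 scale.

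**Figure D2:**
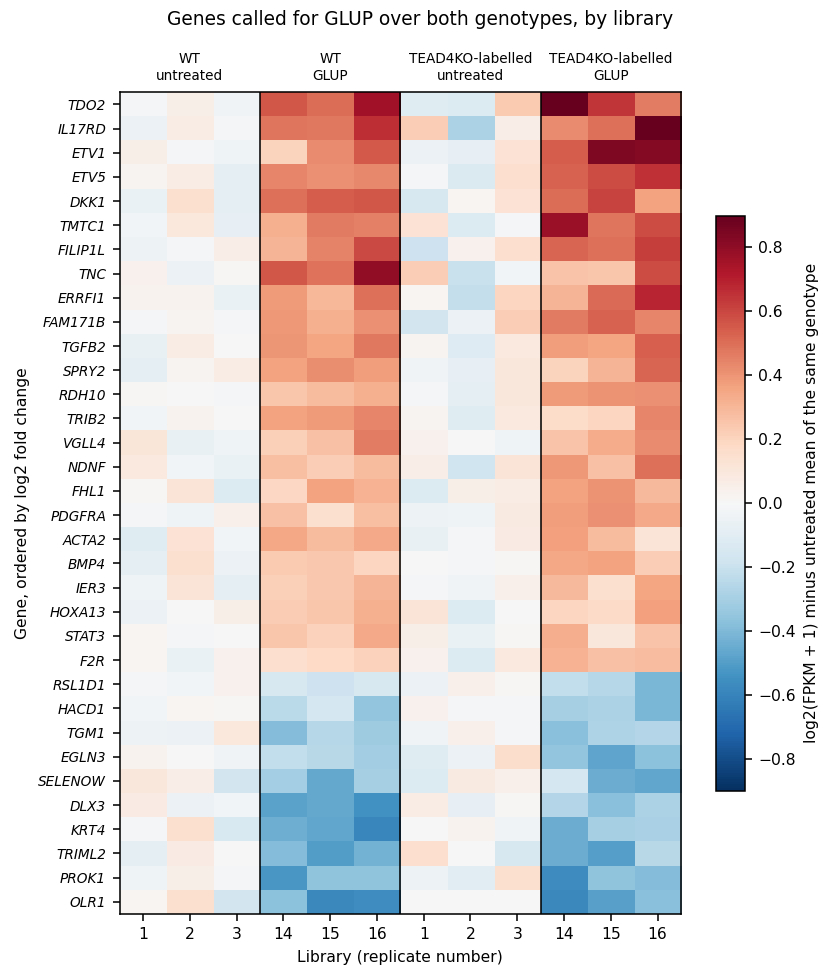
Rows are the 34 called genes and columns the 12 libraries, coloured by log2(FPKM + 1) minus the untreated mean of the same genotype. Every gene keeps its direction in all 6 GLUP libraries, from TDO2 at the top (log2 fold change 0.67) to OLR1 at the bottom (-0.49).

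Of the 24 genes that rose, 7 are on lists of genes that ERK signalling induces. ETV5 and ETV1, both PEA3-type ETS factors, rose with GLUP, as did the ERK feedback inhibitors SPRY2, IL17RD and ERRFI1, the immediate early gene IER3 and the matrix gene TNC. Over 4 lists of ERK-related genes, 7 of 46 tested genes were called higher and 0 lower, against 0.214% and 0.0891% of all rows. Of the 7, ETV5 and ETV1 alone were also called under the replicate block and in every fit with 1 library left out. Listed members such as CCND1 and MYC had a log2 fold change of 0.0053 (limma adjusted p = 0.997 and 0.992). Of the 46, 40 lay above 0 and 6 below, with a median log2 fold change of 0.16, against -0.0040 over all rows tested, of which 47.6% lay above 0 and 52.4% below. The lists were chosen with earlier results of these data known, so these counts are descriptions and no test.

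ETV5 (ENSG00000244405, GRCh37 chromosome 3, 185764103 to 185828107, minus strand) had the smallest p of all genes. It stood at 13.4, 13.8 and 12.3 FPKM in WT cells without GLUP and at 18.2, 17.8 and 18.1 FPKM with it. Under the TEAD4KO label it was at 11.1, 10.2 and 12.6 FPKM before GLUP and at 16.7, 17.4 and 18.3 FPKM with GLUP. All 6 GLUP libraries thus lay above all 6 untreated ones. The mean went from 12.2 to 17.8 FPKM, a log2 change of 0.51 ± 0.057 (SE, limma adjusted p = 0.00189).

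ETV1 (ENSG00000006468, chromosome 7, 13930854 to 14031050, minus strand), another PEA3 factor, went from 6.87, 6.50 and 6.38 FPKM to 7.71, 9.16 and 10.1 FPKM in WT. In TEAD4KO-labelled cells its values were 6.01, 5.88 and 6.93 FPKM before GLUP and 9.60, 12 and 11.9 FPKM with GLUP. Here too the 6 GLUP libraries lay above the 6 untreated ones, with the lowest GLUP value in WT replicate 14. The log2 fold change was 0.57 ± 0.086 (SE, limma adjusted p = 0.00916). ETV4, the remaining PEA3 factor, had values of 1.72 to 2.96 FPKM before GLUP and 2.62 to 4.30 FPKM with GLUP, with a log2 change of 0.24 ± 0.085 that did not pass (limma adjusted p = 0.457).

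Of the feedback inhibitors, 9 of 14 were tested, 3 were called higher and none lower. DUSP4, DUSP5, DUSP6, SPRY4 and SPRED3 had a mean under 1 FPKM and were not tested. IL17RD, a membrane protein that dampens signalling from fibroblast growth factor receptors, stood at 2.21, 2.49 and 2.30 FPKM in WT cells without GLUP and at 3.65, 3.64 and 4.28 FPKM with GLUP. In TEAD4KO-labelled cells it was at 2.26, 1.29 and 1.91 FPKM before GLUP and at 2.74, 2.93 and 4.31 FPKM with GLUP. These are low levels, yet the groups did not overlap, and the log2 fold change was 0.58 ± 0.10 (SE, limma adjusted p = 0.0248). SPRY2, a Sprouty protein, rose by 0.37 ± 0.065 on the log2 scale, from 3.31 to 4.36 FPKM over the untreated libraries to 4.74 to 6.19 FPKM over the GLUP libraries (limma adjusted p = 0.0285). ERRFI1, an inhibitor of the epidermal growth factor receptor, rose by 0.45 ± 0.075, from 13.5 to 18.2 FPKM untreated to 19.0 to 26.0 FPKM with GLUP (limma adjusted p = 0.0223). Among the others, SPRY1 had a log2 change of 0.30 (limma adjusted p = 0.192) and SPRED2 of 0.25 (limma adjusted p = 0.271), and 3 of the 9 lay below 0. These 3 calls were less firm than those of ETV5 and ETV1. IL17RD held in 5 of 12 fits with 1 library left out and stood at 0.0789 (adjusted p) without WT untreated replicate 1. SPRY2 held in 3 and reached 0.101 without the same library, and ERRFI1 held in 9 and reached 0.0704 without WT untreated replicate 3 (limma).

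Immediate early genes, which respond to growth signals without new protein, lay above 0 in 21 of 23 cases, with a median log2 fold change of 0.14. A single member, IER3, was called. At an unadjusted p of 0.05 (limma), 14 of the 23 passed, all of them higher, against 3.76% higher over all rows tested. IER3 went from 14.8, 16.6 and 14.3 FPKM to 17.8, 18.2 and 19.0 FPKM in WT and from 19.2, 18.9 and 20 FPKM to 23.9, 21.5 and 25.0 FPKM in TEAD4KO-labelled cells. Its groups separated within each genotype but overlapped between them, since IER3 was also higher under the TEAD4KO label, and its log2 fold change with GLUP was 0.26 ± 0.049 (SE, limma adjusted p = 0.0403). JUN, an AP-1 subunit, lay just outside the threshold with 11.6 to 14.3 FPKM before GLUP and 15.4 to 21.7 FPKM with GLUP (log2 fold change 0.39, limma adjusted p = 0.0568). IER2 was close to it (0.42, limma adjusted p = 0.0869). The list median by library did not separate in TEAD4KO-labelled cells, where GLUP replicate 15 was at -0.040 and untreated replicate 1 at 0.00041 on the centred log2 scale. The call of IER3 held in 3 of 12 fits and was lost, for example, without WT untreated replicate 1 (limma adjusted p = 0.132).

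Among 13 other ERK-induced genes, 12 lay above 0 and the median log2 fold change was 0.18. TNC, which encodes the matrix protein tenascin-C, stood at 2.00, 1.82 and 1.95 FPKM in WT cells without GLUP and at 3.30, 3.11 and 4.07 FPKM with GLUP. The libraries labelled TEAD4KO were at 1.78, 1.08 and 1.35 FPKM before GLUP and at 1.85, 1.84 and 2.59 FPKM with GLUP, so the groups separated narrowly there, and over both genotypes they overlapped. The log2 fold change of TNC was 0.49 ± 0.10 (SE, limma adjusted p = 0.0451), and the call held in 1 of 12 fits with a library left out (0.147 without WT untreated replicate 2). FOSL1 (0.41, limma adjusted p = 0.295) and LIF (0.35, limma adjusted p = 0.297) did not pass.

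Receptors upstream of ERK lay on both sides of 0. PDGFRA, a receptor for platelet-derived growth factor, rose from 5.92, 5.80 and 6.21 FPKM to 7.38, 6.72 and 7.43 FPKM in WT and from 5.10, 5.14 and 5.66 FPKM to 7.17, 7.39 and 6.98 FPKM in TEAD4KO-labelled cells. All 6 GLUP libraries lay above the untreated ones, with a log2 change of 0.30 ± 0.054 (SE, limma adjusted p = 0.0285), although the call held in 3 of 12 fits (0.0834 without WT GLUP replicate 16). FGFR3 and FGFR2, receptors for fibroblast growth factors, had values on the other side of 0 that did not pass, at -0.29 (limma adjusted p = 0.0804) and -0.33 (limma adjusted p = 0.105). Of the 15 receptor genes tested, 6 lay above 0 and 9 below, and 5 passed an unadjusted p of 0.05 (limma), 1 higher and 4 lower. Over all rows tested, 3.76% passed it higher and 3.78% lower. STAT3, a transcription factor that cytokine and growth factor receptors activate, rose by 0.25 ± 0.046 on the log2 scale, from 18.5 to 20 FPKM untreated to 20.8 to 24.6 FPKM with GLUP (limma adjusted p = 0.0379, held in 2 of 12 fits, 0.113 without WT GLUP replicate 16).

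The factors that the peptide was built around, and their usual targets, did not move together. Of 8 tested genes for TEADs and their cofactors, VGLL4 was called higher and none lower. Of 20 tested YAP, TAZ and TEAD targets, TGFB2 was called higher and none lower, 9 lay above 0 and 11 below, and the median log2 fold change was -0.0096, against -0.0040 over all rows tested. IGFBP3 (0.25, limma adjusted p = 0.273) and MYOF (0.14, limma adjusted p = 0.502) had the next smallest p.

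VGLL4 (ENSG00000144560, chromosome 3, 11597543 to 11812824, minus strand) stood at 11.0, 9.62 and 9.86 FPKM in WT cells without GLUP and at 11.9, 12.4 and 14.3 FPKM with GLUP. Under the TEAD4KO label it was at 11.3, 11.0 and 10.7 FPKM before GLUP and at 13.3, 14.1 and 15.1 FPKM with GLUP. The groups did not overlap, and the log2 fold change was 0.32 ± 0.055 (SE, limma adjusted p = 0.0243). The call of this corepressor gene held in 5 of 12 fits and was lost, for example, without WT untreated replicate 3 (limma adjusted p = 0.0789). VGLL4 overlaps ATG7 on the other strand. The gene for TAZ, WWTR1, had a log2 change of 0.23 that did not pass (limma adjusted p = 0.186), and that for YAP, YAP1, of -0.13 (limma adjusted p = 0.815).

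The 4 TEAD genes had log2 fold changes of 0.019 for TEAD1 (95% interval from -0.12 to 0.16), 0.11 for TEAD2 (-0.021 to 0.25), -0.063 for TEAD3 (-0.18 to 0.059) and -0.062 for TEAD4 (-0.15 to 0.030), and none passed. The sign of the TEAD1 value turned under other settings. In WT, TEAD4 was at 25.8, 24.4 and 25.0 FPKM before GLUP and lower, at 23.7, 22.9 and 23.8 FPKM, with GLUP. In TEAD4KO-labelled cells its untreated and GLUP libraries overlapped. The study reports CCN2 (CTGF), CCN1 (CYR61), AXL, CCNA2 and CGB5 as TEAD signature genes lowered by GLUP in RNA-seq. It names BCL2L1 for a weaker TEAD4 signal on chromatin, not for its RNA. Of these 6, 5 were tested, none was called (limma), and 1 lay above 0 and 4 below. The survival gene BCL2L1 alone of them passed an unadjusted p of 0.05, at -0.10 (95% interval from -0.18 to -0.0075, limma adjusted p = 0.608). CCN1 stood at 25.2 to 32.1 FPKM before GLUP and at 22.7 to 29.6 FPKM with GLUP, with a log2 change of -0.11 (95% interval from -0.23 to 0.011, limma adjusted p = 0.704). CCN2 stood at 6.92 to 10.1 FPKM before GLUP and at 6.47 to 9.23 FPKM with GLUP, with a value of -0.018 (-0.15 to 0.12, limma adjusted p = 0.98) whose sign also turned under other settings. AXL, a receptor tyrosine kinase, had 0.076 (-0.082 to 0.23) and the cyclin gene CCNA2 had -0.049 (-0.17 to 0.077). For CCN1, CCN2, AXL and CCNA2 the untreated and GLUP libraries overlapped, and the intervals bound a change in either direction to less than 1.25-fold on the log2(FPKM + 1) scale. CGB5 had at most 0.401 FPKM in any library and was not tested. None of 24 genes of the Hippo kinase core and its upstream regulators was called at an adjusted p of 0.05 (limma). At an unadjusted p of 0.05, 3 of the 24 passed, against 7.54% of all rows tested. The scaffold gene AJUBA came closest at -0.28 (limma adjusted p = 0.0808), before its relative WTIP at -0.20 (limma adjusted p = 0.457).

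**Figure D3:**
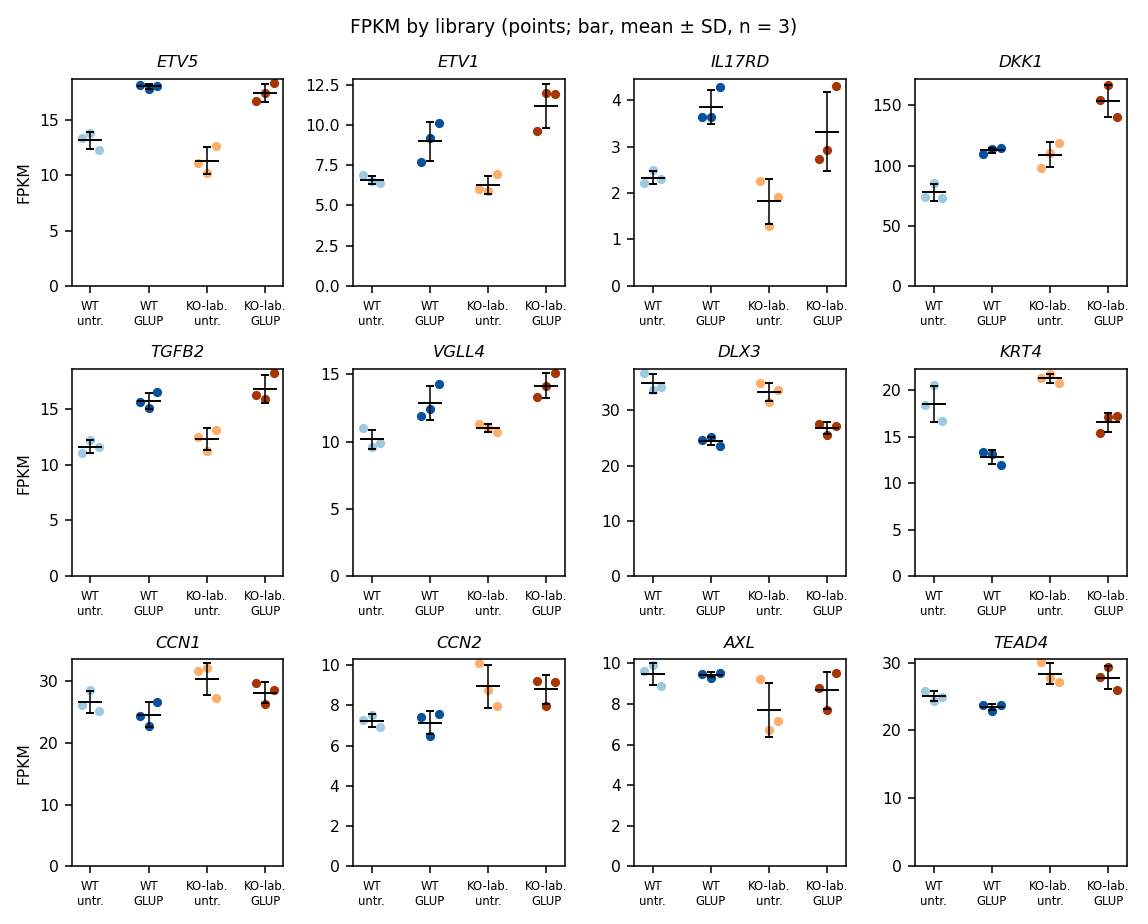
FPKM of 12 genes in every library (points, with the mean ± SD of 3 libraries in black), with WT in blue and TEAD4KO-labelled cells in orange, untreated in light and GLUP in dark shades. ETV5, ETV1, IL17RD, TGFB2, VGLL4 and DLX3 separate by GLUP over both genotypes, whereas the groups of CCN1, CCN2, AXL and TEAD4 overlap or differ by genotype.

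Among secreted ligands and inhibitors, DKK1, TGFB2, BMP4 and NDNF rose and PROK1 fell. DKK1 (ENSG00000107984, chromosome 10, 54074041 to 54077802, plus strand), a secreted inhibitor of Wnt signalling, was the most abundant of them. It stood at 74.1, 85.7 and 73.1 FPKM in WT cells without GLUP and at 109.7, 113.5 and 114.3 FPKM with GLUP. In TEAD4KO-labelled cells it was at 98.1, 110.1 and 119.1 FPKM before GLUP and at 154.8, 166.6 and 139.9 FPKM with GLUP. Within each genotype the groups were far apart, while the higher level under the TEAD4KO label made the untreated TEAD4KO-labelled libraries overlap the WT libraries with GLUP. The log2 fold change was 0.51 ± 0.058 (SE, limma adjusted p = 0.00189). Of 22 Wnt pathway genes and targets tested, DKK1 was called higher and none was called lower, with a median of 0.031. The Wnt targets SP5 (-0.31, limma adjusted p = 0.462) and LEF1 (0.12, limma adjusted p = 0.642) lay on opposite sides of 0 and did not pass.

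TGFB2 (ENSG00000092969, chromosome 1, 218518678 to 218617961, plus strand), a ligand of the transforming growth factor beta family, went from 11.0, 12.2 and 11.6 FPKM to 15.6, 15.1 and 16.5 FPKM in WT. In TEAD4KO-labelled cells it went from 12.5, 11.2 and 13.1 FPKM to 16.2, 15.9 and 18.2 FPKM. All 6 GLUP libraries lay above all 6 untreated ones by 2 FPKM or more, and the log2 fold change was 0.41 ± 0.053 (SE, limma adjusted p = 0.00323). BMP4, a bone morphogenetic protein of the same family, went from 45.6, 53.7 and 46.9 FPKM to 57.3, 57.8 and 55.8 FPKM in WT and from 62.4, 61.9 and 62.9 FPKM to 79.6, 80.3 and 72.8 FPKM in TEAD4KO-labelled cells. Its rise was 0.27 ± 0.045 on the log2 scale (SE, limma adjusted p = 0.0241), held in 5 of 12 fits (0.0789 without WT untreated replicate 1). Of 22 ligands, receptors and mediators of the family tested, TGFB2 and BMP4 were called higher and none lower, with a median of 0.036, and neither LTBP1 (0.22, limma adjusted p = 0.181) nor SKIL (0.43, limma adjusted p = 0.524) passed. Of 14 genes that transforming growth factor beta is known to induce, none was called at an adjusted p of 0.05 (limma), 11 lay above 0, and the median was 0.13. At an unadjusted p of 0.05, 6 of the 14 passed, all higher, against 3.76% higher over all rows tested. The transcription factor gene BHLHE40 (0.30, limma adjusted p = 0.208) and TSC22D1 (0.22, limma adjusted p = 0.437) had the smallest p among the 14. ACTA2, smooth muscle actin, rose from 65.5 to 94.5 FPKM untreated to 86.3 to 116.2 FPKM with GLUP (log2 fold change 0.29 ± 0.052, limma adjusted p = 0.0285, held in 3 of 12 fits, 0.10 without WT untreated replicate 3). ACTA2 overlaps FAS and STAMBPL1 on the other strand, and whether the reads were counted by strand is not given in the sources used here.

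DKK1, TGFB2 and FILIP1L are shown by their promoters because they were the genes called higher whose promoter held the core letters of the TEAD motif. The sequences are the 250 bases before a RefSeq gene start (GRCh38.p14), written 5′ to 3′ on the strand of the gene. They lie at chr10:52314031-52314280 (plus strand) for DKK1, chr1:218345086-218345335 (plus) for TGFB2 and chr3:99876174-99876423 (minus) for FILIP1L. A single RefSeq start was used per gene. In FILIP1L this start lies inside the span of the gene, not at its outer end (99833357 in the coordinates of GRCh37). Which start was used in these cells was not tested. Capitals mark GGAATG on either strand, which reads CATTCC when it lies on the other strand, and in FILIP1L also the CArG box, the motif bound by serum response factor.
DKK1: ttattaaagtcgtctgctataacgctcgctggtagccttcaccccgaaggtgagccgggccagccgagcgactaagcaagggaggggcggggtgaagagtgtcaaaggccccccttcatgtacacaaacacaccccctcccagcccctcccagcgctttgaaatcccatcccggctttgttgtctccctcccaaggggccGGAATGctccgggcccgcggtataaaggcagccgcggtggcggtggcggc
TGFB2: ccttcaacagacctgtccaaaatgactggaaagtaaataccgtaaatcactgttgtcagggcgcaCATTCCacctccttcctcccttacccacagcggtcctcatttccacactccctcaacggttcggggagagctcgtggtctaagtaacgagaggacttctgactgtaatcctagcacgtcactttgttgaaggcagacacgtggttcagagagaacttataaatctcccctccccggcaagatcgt
FILIP1L: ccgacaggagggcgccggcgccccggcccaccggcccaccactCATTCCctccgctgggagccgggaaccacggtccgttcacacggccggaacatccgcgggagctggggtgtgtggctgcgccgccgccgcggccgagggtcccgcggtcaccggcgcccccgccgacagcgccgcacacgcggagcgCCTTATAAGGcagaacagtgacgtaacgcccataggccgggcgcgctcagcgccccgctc
The letters began 50 bases before the start in DKK1, 185 in TGFB2 and 207 in FILIP1L, and the CArG box of FILIP1L began 60 bases before it. A promoter was matched for 25 of the 34 genes. GGAATG was found in 3 of 19 genes called higher (15.8%) and in 0 of 6 called lower, against 831 of 9034 rows tested with a promoter (9.20%). The AP-1 letters TGANTCA were in 2 of the 19, TDO2 and PDGFRA, against 3.40% of all, the ETS letters CCGGAAGT in 0, against 7.99%, and the CRE letters TGACGTCA in 0, against 3.14%. The CArG box was in FILIP1L alone of the 19, against 0.974% of all. Each motif was searched on both strands, a match is only a match of letters in this window, and no binding was measured here.

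FILIP1L, a filamin-interacting protein, was among the least abundant called genes. It stood at 1.95, 2.03 and 2.18 FPKM in WT cells without GLUP and at 2.77, 3.15 and 3.60 FPKM with GLUP, and at 1.40, 1.81 and 2.04 FPKM before GLUP and 2.94, 2.86 and 3.21 FPKM with GLUP in TEAD4KO-labelled cells. The groups did not overlap, and the log2 fold change was 0.50 ± 0.075 (SE, limma adjusted p = 0.00914). The gene overlaps CMSS1 on the other strand.

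PROK1, the angiogenic ligand prokineticin-1, fell from 3.01, 3.26 and 3.07 FPKM to 1.86, 2.20 and 2.20 FPKM in WT and from 3.06, 2.93 and 3.64 FPKM to 1.83, 2.27 and 2.20 FPKM in TEAD4KO-labelled cells. The levels were nearly the same in both genotypes before and after GLUP, and the log2 fold change was -0.43 ± 0.068 (SE, limma adjusted p = 0.0125). NDNF, a secreted neurotrophic factor, rose by 0.32 ± 0.060 on the log2 scale from 13.6 to 16.9 FPKM untreated to 18.6 to 22.3 FPKM with GLUP (limma adjusted p = 0.0378, held in 2 of 12 fits, 0.109 without WT untreated replicate 3). F2R, the thrombin receptor, rose by 0.23 ± 0.045, from 23.2 to 27.0 FPKM to 28.4 to 31.8 FPKM (limma adjusted p = 0.0451, held in 1 of 12 fits, 0.147 without WT untreated replicate 2).

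TDO2 and RDH10, enzymes of tryptophan and retinol metabolism, rose. TDO2 (ENSG00000151790, chromosome 4, 156775890 to 156841558, plus strand), the dioxygenase that opens the kynurenine route of tryptophan breakdown, had the largest log2 fold change among called genes. It stood at 5.15, 5.46 and 5.09 FPKM in WT cells without GLUP and at 8.17, 7.84 and 9.54 FPKM with GLUP. The libraries labelled TEAD4KO were at 5.39, 5.33 and 7.14 FPKM before GLUP and at 13.6, 9.81 and 8.50 FPKM with GLUP. The GLUP libraries of the TEAD4KO label were widely spread, yet all 6 GLUP libraries lay above all untreated ones, and the mean was 71.2% higher (log2 fold change 0.67 ± 0.10, SE, limma adjusted p = 0.00849). Of 14 genes of kynurenine metabolism and its receptor AHR, no other was called, the median was -0.013, AHR itself had 0.20 (limma adjusted p = 0.611) and the amino acid transporter subunit SLC3A2 had -0.089 (limma adjusted p = 0.68).

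RDH10 (ENSG00000121039, chromosome 8, 74206837 to 74237516, plus strand), the retinol dehydrogenase that begins retinoic acid synthesis, had among the smallest errors. It went from 30.4, 30.1 and 29.8 FPKM to 35.9, 36.9 and 37.9 FPKM in WT and from 32.7, 31.1 and 35.6 FPKM to 43.5, 44.0 and 44.3 FPKM in TEAD4KO-labelled cells. The lowest GLUP library, at 35.9 FPKM, lay just above the highest untreated one, at 35.6 FPKM. The log2 fold change was 0.34 ± 0.042 (SE, limma adjusted p = 0.00249). RDH10 overlaps RPL7 on the other strand. Of 14 genes of retinoid metabolism and signalling, 12 lay above 0 with a median of 0.078, and next to RDH10 the smallest p were those of the retinoic acid receptor RARA (0.17, limma adjusted p = 0.177) and the retinol transporter STRA6 (0.38, limma adjusted p = 0.296).

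TMTC1, a mannosyltransferase of the endoplasmic reticulum, rose from 8.05, 8.83 and 7.76 FPKM to 10.5, 11.7 and 11.6 FPKM in WT and from 8.41, 6.88 and 7.53 FPKM to 13.7, 11.0 and 11.9 FPKM in TEAD4KO-labelled cells. No GLUP library overlapped an untreated one, and the log2 fold change was 0.51 ± 0.069 (SE, limma adjusted p = 0.00507). FAM171B, a membrane protein, rose by 0.42 ± 0.059 on the log2 scale from 12.8 to 17.0 FPKM untreated to 18.8 to 21.3 FPKM with GLUP (limma adjusted p = 0.0052). The LIM-domain gene FHL1 (0.32, limma adjusted p = 0.0257), the pseudokinase gene TRIB2 (0.33, limma adjusted p = 0.0285) and the homeobox gene HOXA13 (0.26, limma adjusted p = 0.0451) also rose. These calls held in 5, 4 and 1 of 12 fits, with adjusted p of 0.0905 without WT GLUP replicate 15 for FHL1, 0.102 without WT untreated replicate 1 for TRIB2 and 0.156 without the same library for HOXA13.

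The genes that fell included the homeobox factor DLX3 and genes of stratified epithelium, KRT4 and TGM1. DLX3 (ENSG00000064195, chromosome 17, 48067369 to 48072588, minus strand), which acts in the differentiation of epidermis and placenta, went from 36.8, 33.6 and 34.2 FPKM to 24.7, 25.1 and 23.6 FPKM in WT. In TEAD4KO-labelled cells it went from 34.9, 31.6 and 33.6 FPKM to 27.6, 25.5 and 27.2 FPKM. All GLUP libraries lay below all untreated ones, and the mean was 25.6 FPKM against 34.1 FPKM, a log2 change of -0.40 ± 0.048 (SE, limma adjusted p = 0.00249). The DLX family has 6 members, all tested. Its neighbour on chromosome 17, DLX4, had -0.21 (limma adjusted p = 0.437), DLX6 had 0.085 (limma adjusted p = 0.806), and 3 of the 6 lay above 0.

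KRT4, a keratin of non-cornified stratified epithelium, went from 18.4, 20.6 and 16.7 FPKM to 13.4, 13.1 and 12 FPKM in WT and from 21.3, 21.8 and 20.8 FPKM to 15.4, 17.1 and 17.2 FPKM in TEAD4KO-labelled cells. It separated within each genotype, with a log2 change of -0.42 ± 0.058 (SE, limma adjusted p = 0.00507). TGM1, the transglutaminase that cross-links the cornified envelope, stood at 4.71 to 5.31 FPKM in untreated and 3.52 to 3.95 FPKM in GLUP libraries of WT, and at 5.80 to 6.18 and 4.36 to 4.79 FPKM in TEAD4KO-labelled cells. Its log2 fold change was -0.31 ± 0.054 (SE, limma adjusted p = 0.0248), a call that held in 3 of 12 fits (0.0929 without WT untreated replicate 3). Of the 3 epithelial markers tested, KRT8 had -0.35 (limma adjusted p = 0.336), CDH1 had -0.32 (limma adjusted p = 0.184) and CLDN7 lay on the other side of 0 at 0.20 (limma adjusted p = 0.568), and none passed. Of 9 genes of the mesenchymal state none was called (limma, 1 at an unadjusted p of 0.05), the median was 0.025, and ZEB1 had 0.15 and ZEB2 -0.12 (limma adjusted p = 0.642 and 0.718).

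OLR1, a scavenger receptor for oxidised low-density lipoprotein, went from 4.76, 5.29 and 4.08 FPKM to 3.40, 2.80 and 2.86 FPKM in WT and from 5.69, 5.74 and 5.71 FPKM to 3.48, 3.78 and 4.16 FPKM in TEAD4KO-labelled cells. This was the largest fall among called genes on the log2 scale (-0.49 ± 0.067, SE, limma adjusted p = 0.00507), and the mean was 34.5% lower. The row overlaps TMEM52B on the other strand. HACD1, a dehydratase of fatty acid elongation, fell from 37.5, 38.7 and 38.4 FPKM to 32.2, 34.2 and 29.6 FPKM in WT and from 48.4, 46.5 and 46.6 FPKM to 38.1, 38.6 and 35.3 FPKM in TEAD4KO-labelled cells (log2 fold change -0.29 ± 0.043, SE, limma adjusted p = 0.00849). In HACD1 the effect of GLUP was about as large as the difference between the genotypes (0.26 ± 0.043 on the log2 scale).

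TRIML2, a tripartite motif-like protein, fell from 5.33 to 6.87 FPKM untreated to 3.72 to 4.96 FPKM with GLUP (-0.42 ± 0.066, limma adjusted p = 0.0125), and the call held in 10 of 12 fits (0.0518 without WT GLUP replicate 15). EGLN3, an oxygen-sensing prolyl hydroxylase induced by hypoxia, fell from 10.6 to 13.0 FPKM to 8.03 to 10.0 FPKM (-0.33 ± 0.056, limma adjusted p = 0.0248, held in 4 of 12 fits, 0.0789 without WT untreated replicate 1). EGLN3 overlaps SPTSSA on the same strand. It was the called member of 26 genes of glycolysis and hypoxia, whose median was 0.0022, and the hypoxia-induced gene ADM lay just outside the threshold at -0.23 (limma adjusted p = 0.062), followed by the glucose transporter SLC2A3 at -0.20 (limma adjusted p = 0.169). The selenoprotein gene SELENOW (-0.35, limma adjusted p = 0.0379, held in 3 of 12 fits, 0.124 without WT untreated replicate 1) and the nucleolar protein gene RSL1D1 (-0.23, limma adjusted p = 0.0403, held in 1 of 12 fits, 0.109 without WT untreated replicate 3) also fell. RSL1D1, at 101.5 to 110.5 FPKM before GLUP and 79.0 to 97.5 FPKM with GLUP, was the most abundant gene that fell.

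The GLUP effect was set side by side in the genotypes, which share no libraries. In WT alone 1 gene, DLX3, was called (0.00891%, limma) and 385 passed an unadjusted p of 0.05 (3.43%). In TEAD4KO-labelled cells 5 genes were called (0.0445%), 4 of them higher (0.0356%), and 716 passed an unadjusted p of 0.05 (6.38%). ETV5 was at 0.43 ± 0.078 in WT and 0.59 ± 0.078 in TEAD4KO-labelled cells (SE). DKK1 was at 0.53 ± 0.085 and 0.49 ± 0.085, and TGFB2 at 0.41 ± 0.078 and 0.42 ± 0.078. DLX3 was at -0.49 ± 0.062 and -0.31 ± 0.062. The effect was larger in TEAD4KO-labelled cells for 22 of the 34 genes.

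The difference between the genotypes was tested by the interaction, and none of the 34 was called in it. The smallest unadjusted p among them was that of ETV1, at 0.39 ± 0.11 in WT and 0.74 ± 0.11 in TEAD4KO-labelled cells, a difference of 0.35 ± 0.15 (SE) that did not pass over all genes, of which 2.53% had an unadjusted p under 0.05. A p that misses the threshold does not show equal effects, and for the 24 genes called higher the median size of the difference was 0.102 on the log2 scale and for the 10 called lower 0.0612, against 0.0774 over all rows tested. Over all rows 1 was called (0.00891%, limma), the readthrough row RPL36A-HNRNPH2, which spans RPL36A and HNRNPH2 and whose reads may be split with them. Of the 34 genes, 13 also differed between the TEAD4KO label and WT (11 higher and 2 lower, the latter HOXA13 and TNC), where 21.9% of all rows were called, 15.3% higher and 6.62% lower, and 35.7% passed an unadjusted p of 0.05.

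**Figure D4:**
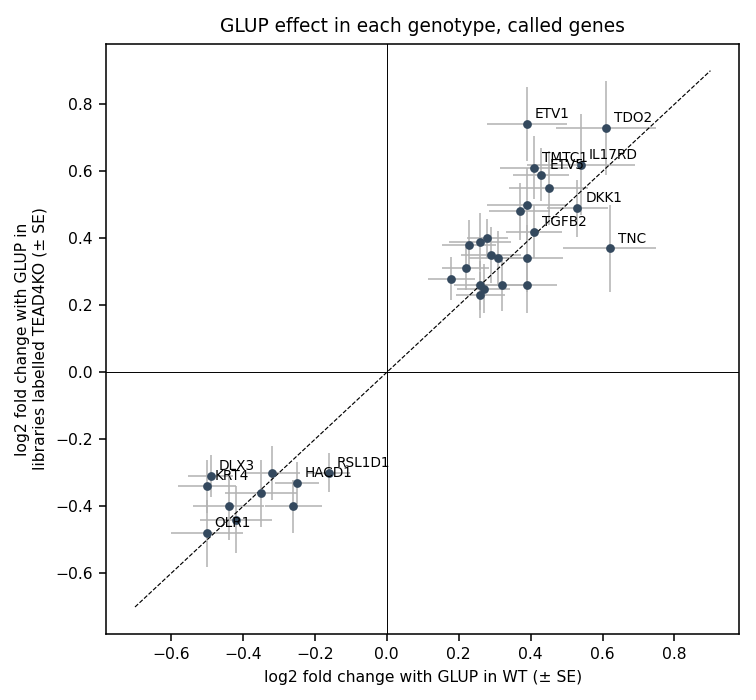
Each point is 1 of the 34 called genes, with its log2 fold change with GLUP in WT on the horizontal axis and in TEAD4KO-labelled cells on the vertical axis (bars, SE, n = 3 against 3 in each), and the dashed line marks equal effects. All points lie in the quadrants of equal sign, which follows from their choice over both genotypes, and ETV1 lies farthest above the line (0.39 against 0.74).

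The lists of genes for cell division, death and stress that follow held no call. Over all rows tested, 7.54% passed an unadjusted p of 0.05 (limma), 3.76% higher and 3.78% lower. None of 20 mitotic genes was called at an adjusted p of 0.05 (limma, 3 at an unadjusted p of 0.05, all lower), and 17 of them lay below 0 with a median of -0.051. CDC20, an activator of the anaphase-promoting complex, had -0.10 (limma adjusted p = 0.502), and CCNB1, cyclin B1, had -0.12 (limma adjusted p = 0.654). DNA replication genes were centred near 0 (23 tested, median -0.016), with none called (limma, 1 at an unadjusted p of 0.05), CDT1 at -0.14 (limma adjusted p = 0.457) and RRM2 at -0.043 (limma adjusted p = 0.87). Of 18 pro-apoptotic genes none was called (limma, 3 at an unadjusted p of 0.05), with a median of 0.018. PMAIP1, a BH3-only protein, had 0.24 (limma adjusted p = 0.177). Of 20 p53 targets none was called (limma, 2 at an unadjusted p of 0.05), with a median of 0.042. These were the death receptor FAS (0.13, limma adjusted p = 0.457), which overlaps ACTA2, and the BH3-only gene BBC3 (0.27, limma adjusted p = 0.586). Of 8 anti-apoptotic genes none was called (limma, 3 at an unadjusted p of 0.05), the median was 0.020, and XIAP had 0.18 and MCL1 0.092 (limma adjusted p = 0.433 and 0.592).

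Chaperone and antioxidant genes lay mostly below 0, and none was called (limma). Of 14 heat shock and chaperone genes, 13 lay below 0 with a median of -0.077. At an unadjusted p of 0.05 (limma), 5 of the 14 passed, all lower, against 3.78% lower over all rows tested. DNAJB1, a co-chaperone of HSP70, stood at 75.7 to 84.1 FPKM before GLUP and at 66.6 to 77.9 FPKM with GLUP (-0.12, limma adjusted p = 0.422), and the HSP70 gene HSPA1B had -0.15 (limma adjusted p = 0.522). Of 15 targets of the oxidative stress factor NRF2, 14 lay below 0 with a median of -0.061, and HMOX1, heme oxygenase, had -0.30 (limma adjusted p = 0.154), with -0.46 ± 0.084 in WT and -0.13 ± 0.084 in TEAD4KO-labelled cells (SE). SRXN1, sulfiredoxin, had -0.16 (limma adjusted p = 0.249). Neither list separated by library in both genotypes. On the centred log2 scale, TEAD4KO-labelled libraries stood for chaperones at -0.058, 0.067 and 0.068 untreated and at 0.043, 0.024 and -0.14 with GLUP. For NRF2 targets they stood at -0.038, 0.031 and 0.056 untreated and at 0.012, 0.022 and -0.10 with GLUP. Under this label, untreated replicate 1 thus lay among the GLUP libraries, and GLUP replicates 14 and 15 lay above 0 in both lists. GLUP replicate 16, which stood apart on the first principal component, was the lowest. Of 20 genes of the integrated stress response, none was called (limma, 3 at an unadjusted p of 0.05, all higher), and TRIB3 came closest with 0.26 (limma adjusted p = 0.107), before ASNS, asparagine synthetase, with 0.16 (limma adjusted p = 0.447).

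Genes of lipid synthesis and of the matrix lay mostly above 0, by small amounts and without a call. Of 23 genes of cholesterol and fatty acid synthesis, 19 lay above 0, yet by a median of 0.040 and with none called (limma, 1 at an unadjusted p of 0.05). The desaturase SCD had 0.11 (limma adjusted p = 0.457) and the squalene epoxidase SQLE 0.086 (limma adjusted p = 0.694). Of 19 collagen, laminin and integrin genes, 16 lay above 0 with a median of 0.049 and 3 passed an unadjusted p of 0.05, all higher. COL12A1 had 0.38 (limma adjusted p = 0.295) and COL1A2 0.31 (limma adjusted p = 0.433). Neither the lipid nor the matrix list separated by library in both genotypes. In WT the matrix median was at -0.039, -0.08 and -0.022 untreated and 0.016, 0.0014 and 0.13 with GLUP (centred log2 scale). In TEAD4KO-labelled cells it was at 0.18, -0.15 and -0.086 untreated and 0.019, -0.16 and 0.20 with GLUP, so the groups overlapped there. Of 12 interferon response genes none was called (limma, 0 at an unadjusted p of 0.05), with a median of 0.0058, and IFIT3 had 0.13 and IRF1 0.11 (limma adjusted p = 0.707 and 0.729). Over all rows tested, 3.76% passed an unadjusted p of 0.05 (limma) higher and 3.78% lower. Genes of the lists are regulated together and measured in the same libraries, so their counts are descriptions.

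**Figure D5:**
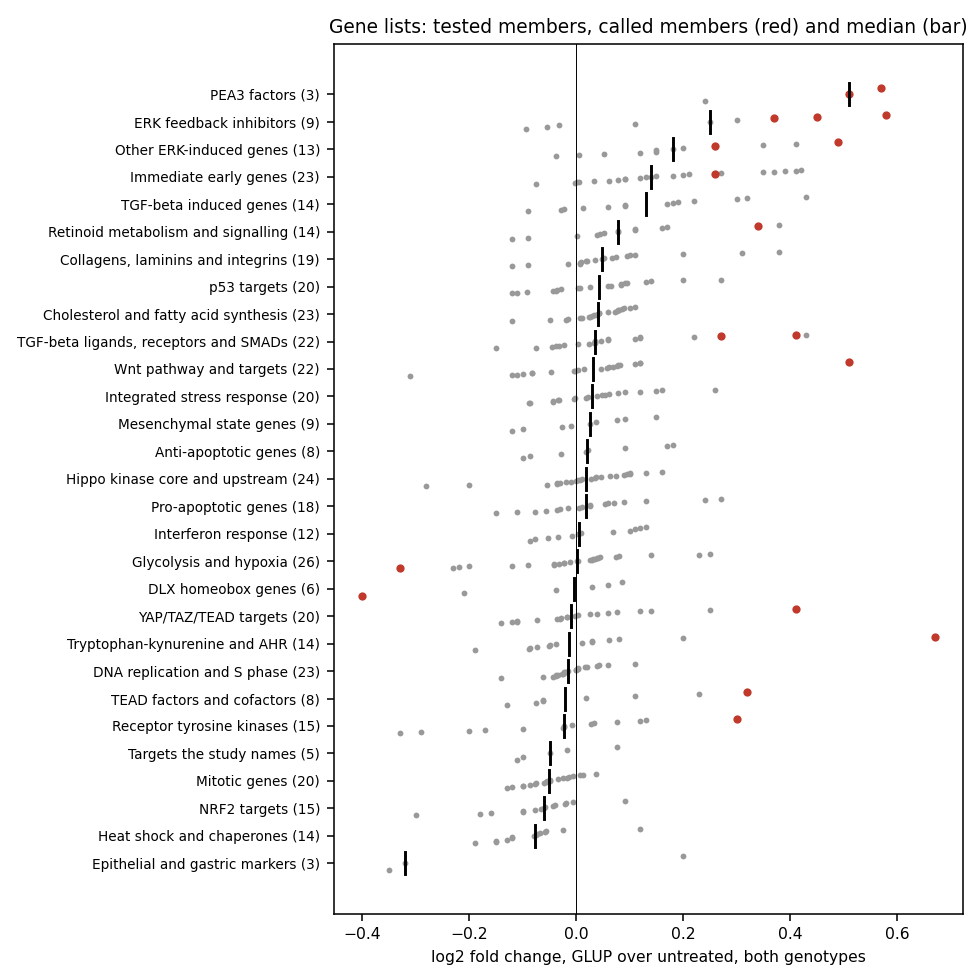
Each grey point is a tested gene of a list (number tested in brackets), placed by its log2 fold change with GLUP over both genotypes, called genes are red and black bars are medians. PEA3 factors (median 0.51), ERK feedback inhibitors (0.25) and other ERK-induced genes (0.18) stand at the top, and heat shock and chaperone genes (-0.077) near the bottom. The lists were chosen with earlier results of these data known, so their order is a description.

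Measures of the libraries themselves were compared between GLUP and untreated by an exact permutation test within genotype (400 arrangements, two-sided, smallest possible p = 0.005). The share of FPKM in mitochondrial genes was 16.2% in untreated and 17.1% in GLUP libraries of WT, and 16.1% and 17.8% in TEAD4KO-labelled cells, a difference of 1.33 percentage points (exact p = 0.02, Benjamini-Hochberg 0.14 over 7 measures). For the FPKM total, rows at 0, ribosomal protein genes, the most abundant rows and the trends with length and GC content the exact p lay between 0.21 and 0.875. Across 11077 genes the log2 fold change with GLUP correlated weakly with GC content (Spearman's rho -0.202) and with transcript length (0.0939). Genes are not independent replicates. With each library corrected for both trends, ETV5 was at 0.51, DKK1 at 0.52 and DLX3 at -0.40, and 33 of the 34 calls held, NDNF being lost (limma adjusted p = 0.0538).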

How the data were processed

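RNA was sequenced from 12 HGC-27 samples. The authors deposited a table of FPKM values by Ensembl gene with a column for every sample, without pooling, and all 12 columns were matched by title (0 identical pairs). Per the labels, HISAT2, Cufflinks, RSEM and hg19 are named in the submitters' processing notes, without roles or versions; the annotation and strand setting are not given in the sources used here. FPKM is relative to the mapped total, so a change in abundant genes shifts the others. Steps of whole reads could not be recovered (0.906% of rows shared the most common ratio, against 32.2% in simulated reads), so depth is unknown and precision comes from replicate spread.

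Values were tested as log2(FPKM + 1) with limma 3.58.1 in R 4.3.3 (lmFit, eBayes with trend, genotype as covariate, two-sided, Benjamini-Hochberg over 11225 rows whose mean reached 1 FPKM). Genotype-specific effects and the interaction used 4 group means. On simulated data for this comparison, 56.5% of 200 genes changed by 1.25-fold were recovered (15 false), 94.0% at 1.5-fold (13 false) and 96.5% at 2-fold (7 false). These changes were planted on the log2(FPKM + 1) scale, with noise independent between libraries. Recovery in the real libraries may be lower, above all for low genes. Symbols and GRCh37 positions were matched for 96.5% of rows.

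Named were all called genes, for each list its called members and up to 2 others with the smallest p, the TEAD genes, YAP1, WWTR1, VGLL4, 5 targets the study names and any gene called in the interaction. CLDN7, CCND1, MYC and the untested feedback inhibitors were added after their values were seen. The members and the 30 gene lists were chosen with earlier results of these data known. Alternatives were a pseudocount of 0.1, no filter, a minimum of 5 FPKM, median-ratio and quantile scaling, array weights, eBayes without trend, rows summed per symbol, GC and length correction (splines, 5 degrees of freedom), a replicate block, 4 group means, omission of both libraries that stood apart, and of each library in turn.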

Additional observations from a re-analysis of the deposited data

Results flagged for a closer look

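Among the 34 called genes, 68 groups of 6 libraries (centred within genotype) were examined for a library far from the others with Dixon's ratio, whose critical value is 0.625, and 3 passed it, where chance gives about 1 in 20. BMP4 was set apart by WT untreated replicate 2, at 53.7 FPKM (ratio 0.744). EGLN3 was set apart by TEAD4KO-labelled untreated replicate 3, at 13.0 FPKM (ratio 0.705). RSL1D1 was set apart by TEAD4KO-labelled GLUP replicate 16, at 79.0 FPKM (ratio 0.778), 1 of the libraries that stood apart on the first principal component.

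RPL36A-HNRNPH2 (ENSG00000257529, GRCh37 chromosome X, 100645999 to 100667285, plus strand) responded to GLUP differently in the genotypes. The row stood at 25.8, 20 and 31.0 FPKM in untreated and 44.6, 37.9 and 24.7 FPKM in GLUP libraries of WT, and at 36.3, 40.9 and 46.6 FPKM in untreated and 3.21, 1.04 and 0.492 FPKM in GLUP libraries with the TEAD4KO label. The difference of the GLUP effects was -4.62 ± 0.43 on the log2 scale (SE, limma adjusted p = 0.000685), with 0.45 in WT and -4.17 in TEAD4KO-labelled cells. Over both genotypes its log2 fold change was -1.86 ± 0.65 (limma adjusted p = 0.451). It is a readthrough row, so its values may depend on how reads were split among overlapping rows, which was not tested.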

How the results depend on the processing

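The 34 calls for GLUP over both genotypes became 109 with array weights (71 higher, 38 lower, 30 in gene lists), 22 with no filter on low values (14 higher, 20 of the 34 kept) and 0 with a fold change over 2. Array weights gave 61 calls in WT and 1 under the TEAD4KO label, eBayes without trend 0 and 3, and omission of both libraries that stood apart 2 and 1, with 483 genes separated in both genotypes. Quantile normalization gave 2 calls in WT, and a fit of only the groups compared gave 1 under the TEAD4KO label. With 1 library left out, calls ranged from 15 to 41 (9 to 30 higher, 5 to 11 lower), 15 to 29 of the 34 were kept, 7 to 15 were in gene lists, the interaction gave 1 to 1, WT 0 to 1, the TEAD4KO label 1 to 6, and separated genes numbered 217 to 400. No called gene turned sign in any alternative. TEAD1 (0.019) turned to -0.0057 with GC and length correction and -0.035 with array weights, and ranged from -0.034 to 0.046 with 1 library left out. CCN2 turned to 0.0034 without both libraries that stood apart and ranged from -0.049 to 0.018 with 1 left out, and the alpha globin gene HBA2 (-0.048) from -0.093 to 0.017. The cause was not tested. With the replicate block 15 genes were called (9 higher, 6 lower, all among the 34, 7 in gene lists). Same-numbered libraries of the genotypes correlated at 0.106, 0.152 and 0.336 for 14 to 16 and at -0.0569, 0.203 and -0.0149 for 1 to 3. WT GLUP replicate 16 correlated at -0.191 and -0.245 with TEAD4KO-labelled GLUP replicates 14 and 15. The consensus correlation in the block fit was 0.181. The main fit did not take the numbers as pairs, although each GLUP pair passed 0.1. If same-numbered libraries are related, the p-values of the main limma fit are too small, and the 15 calls are the safer count. WT GLUP replicate 14 correlated best with a library of another number (0.134). The unknown depth leaves the error of single values to the replicates.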
